A study of Mus musculus with 18 samples.

Results

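The genes described here are 10 genes of blood vessel formation: VEGFA, its receptors KDR, FLT1 and NRP1, the ligand ANGPT1 and its receptor TEK, the TGFβ co-receptor ENG, and the endothelial surface proteins PECAM1, ICAM2 and CDH5. They were taken by name, as every probe that the array table assigns to one of these 10 genes, which gave 18 of the 45281 probes. A filter on detection left 13 of the 18 probes (22987 of 45281 in all), and each of the 10 genes kept at least 1 probe, so that all 10 stand among the 16446 genes tested. The study asked how murine embryonic stem (ES) cells are directed towards endothelium on a layer of PA6 cells. ES cells of a τ-EGFP knock-in line, in which the τ promoter drives a green fluorescent reporter, were grown on PA6 cells, a mouse stromal line from bone marrow, and these are the ES/PA6 co-cultures. The PA6 mono-cultures held the stroma alone. Cultures stayed in serum-free medium for 3 days without growth factors (-GFs), with recombinant FGF2 at 20 ng/ml or with recombinant BMP4 at 10 ng/ml, which makes 6 groups of 3 arrays. The doses are those of the labels, and the study's methods give another concentration for BMP4. Each culture type rests on the same lines, and a co-culture array holds RNA of ES-derived and PA6 cells together, read on mouse probes that cannot separate them.

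VEGFA binds the receptor tyrosine kinases KDR and FLT1. KDR carries most of the signal for endothelial growth and is among the earliest surface proteins of the endothelial lineage, FLT1 binds VEGFA tightly with weak kinase activity, and NRP1 is a co-receptor that also takes semaphorins in neurons. ANGPT1, made mainly by perivascular and stromal cells, activates TEK (also called TIE2) on endothelium and steadies vessels. ENG is a co-receptor for BMP and TGFβ ligands on endothelial and some stromal cells. PECAM1, ICAM2 and CDH5 (VE-cadherin) sit at endothelial cell contacts, and PECAM1 is also carried by undifferentiated mouse ES cells.

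The promoters of TEK, FLT1 and ENG are printed because these are the receptors whose response to a growth factor differed between the culture types by the test given below. Each sequence holds the 250 bases before the transcript start that the RefSeq promoter table uses in assembly GRCm38.p6, 5′ to 3′ on the strand of the gene, and for Tek and Flt1 that start lies within the outermost span annotated for the gene: Tek at chr4:94739039-94739288 (plus strand), Flt1 at chr5:147726012-147726261 (minus strand) and Eng at chr2:32646345-32646594 (plus strand). Capitals mark GGAA on either strand (TTCC on the strand shown), the core letters bound by ETS factors, a family with known roles in endothelial transcription.
TEK: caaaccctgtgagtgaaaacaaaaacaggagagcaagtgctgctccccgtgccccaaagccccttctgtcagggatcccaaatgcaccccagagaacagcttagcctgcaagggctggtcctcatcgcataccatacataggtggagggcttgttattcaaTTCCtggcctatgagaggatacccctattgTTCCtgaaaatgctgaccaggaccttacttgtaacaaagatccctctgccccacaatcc
FLT1: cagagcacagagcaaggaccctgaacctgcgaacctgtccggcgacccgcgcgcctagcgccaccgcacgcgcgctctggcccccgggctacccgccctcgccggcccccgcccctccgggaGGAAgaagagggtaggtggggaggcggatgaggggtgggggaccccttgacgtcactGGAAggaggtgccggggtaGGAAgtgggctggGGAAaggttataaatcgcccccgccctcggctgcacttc
ENG: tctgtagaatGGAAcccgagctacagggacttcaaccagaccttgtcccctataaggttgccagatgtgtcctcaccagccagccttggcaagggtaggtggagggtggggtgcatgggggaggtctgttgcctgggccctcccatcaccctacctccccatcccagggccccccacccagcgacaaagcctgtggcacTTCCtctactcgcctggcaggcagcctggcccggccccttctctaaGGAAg
These letters occurred 2 times before TEK, 4 times before FLT1 and 3 times before ENG. Among all 32851 promoter windows of the same length, 93.4% held at least 1, 76.8% at least 2, 54.7% at least 3 and 33.4% at least 4, so that the 3 windows were not unusual in this respect. The longer form AGGAAG, which contains GGAA and was searched on both strands, occurred 2 times before FLT1, 2 times before ENG and 0 times before TEK, where 29.5% of all windows held at least 1 and 6.25% at least 2. The palindrome TGACGTCA, bound by CREB and ATF factors, stood 1 time before FLT1 and in neither of the others (1.55% of all windows). A match describes letters only. Promoter entries were found for 6 of the 10 genes.

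Values below are log2 normalized intensities, on a scale where an added offset understates the change of dim genes. A co-culture array detected 19365 to 20412 probes and a mono-culture array 17125 to 18391, where detected means brighter than the negative control beads at p under 0.05. The 7 tested markers of pluripotent ES cells were called higher in co-culture in all 3 conditions, beside 19.4%, 18.7% and 19% of all genes (-GFs, FGF2 and BMP4). Of these 7 markers, 6, 5 and 5 were detected on 0 of the 3 mono-culture arrays of the condition. A gene that passed the detection filter through co-culture arrays alone had to differ, so these calls describe the list only. The summed level of the 7 markers (linear scale) lay between 36433 and 57512 on co-culture arrays and between 327 and 435 on mono-culture arrays. POU5F1 and NANOG stood at 13.09 to 13.28 and at 12.47 to 13.72 (log2 group means) in the co-cultures. The 10 stromal markers, COL1A1 and THY1 among them, summed to 72428 to 114104 in co-culture and to 178260 to 220952 in mono-culture. In bulk RNA, fewer cells of a type and less RNA per cell cannot be told apart. The 5 tested blood, macrophage and platelet markers summed to 2539 to 5461 in co-culture in -GFs, 8375 to 11218 with FGF2 and 3639 to 6762 with BMP4, against 606 to 732 in mono-culture. PTPRC was detected on 0 arrays. ITGA2B was detected on all and went against the sum, with group means of 6.33 to 7.09 (log2) in co-culture and 8.57 to 8.91 in mono-culture. The 3 tested mesoderm markers summed to 2769 to 5428 in co-culture and to 9266 to 19505 in mono-culture, although T among them was detected on 5 of 9 co-culture and 0 mono-culture arrays. Their median log2 difference (co-culture minus mono-culture) was 0.18, 0.42 and 1.23 in -GFs, FGF2 and BMP4, against the direction of the sum. Such sums follow the brightest genes of a list and do not name a cell type. The 3 tested endoderm markers were detected on every array and summed to 13907 to 20541 and to 37874 to 52327, with GATA4, which was not tested, detected on 0 arrays. The 3 tested neural markers summed to 203 to 1351 and to 109 to 134. The part of these lists in the results below was not tested.

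Replicate 3 of the co-cultures stood apart for part of the genes. ICAM2 and CDH5 were at their highest on replicate 3 in each of the 3 co-culture groups, and so were EMCN, an endothelial sialomucin, and ACTC1, the cardiac actin. EMCN read 7.45, 7.34 and 8.30 (log2, -GFs, FGF2 and BMP4) on replicate 3 against 4.88 to 5.19 on the other 6 co-culture arrays. ACTC1 read 9.40, 8.35 and 10.76 against 5.07 to 6.23. The summed level of 5 mural markers, among them ACTA2, was 14432 to 31489 on these 3 arrays, 7948 to 17538 on replicate 2 and 3160 to 6071 on replicate 1. The part of these values in the results for ICAM2 and CDH5 was not tested, and both are given with and without replicate 3.

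**Figure D1:**
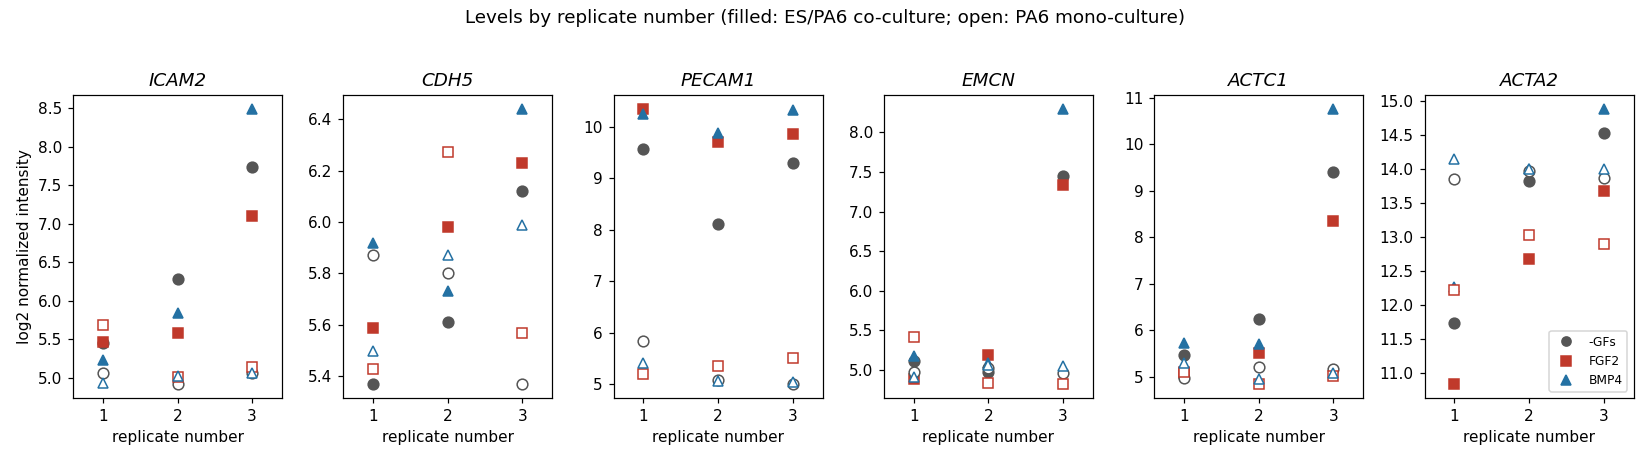
Log2 normalized intensity of ICAM2, CDH5, PECAM1, EMCN, ACTC1 and ACTA2 (vertical axes) by replicate number (horizontal axes), with filled points for ES/PA6 co-cultures, open points for PA6 mono-cultures and a colour and shape for each condition. In co-culture, ICAM2, EMCN and ACTC1 were high on replicate 3 (7.10 to 8.49, 7.34 to 8.30 and 8.35 to 10.76), whereas PECAM1 was high on every co-culture array (8.11 to 10.35).

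A gene was called when the Benjamini-Hochberg adjusted p of limma, over all 16446 genes, was under 0.1 and the absolute log2 fold change over 1. The main fit held no term for the replicate number, and some results are also given with the replicate number fitted as a block. Of the 10 genes, 0 were called for FGF2 against -GFs in co-culture, where 3.34% of all genes were called. At an unadjusted p under 0.05 they were 7 of 10, against 17.8% of all genes. BMP4 against -GFs in co-culture called 1 (PECAM1, higher) beside 0.76% of all genes, with 2 of 10 at an unadjusted p under 0.05 beside 10.9%, and FGF2 against BMP4 called 0 beside 2.85%, with 4 of 10 at an unadjusted p under 0.05 beside 17.4%. In the PA6 mono-cultures FGF2 called 3 (TEK and NRP1 lower, ANGPT1 higher) beside 5.27% of all genes. BMP4 called 0 there beside 1.41%, with 5 of 10 at an unadjusted p under 0.05 beside 12.6%, and FGF2 against BMP4 called 1 (NRP1, lower) beside 5.82%. The comparisons within a culture type share their -GFs arrays and are given side by side only. With 3 arrays per group an exact permutation test could not give a p under 0.1.

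**Figure D2:**
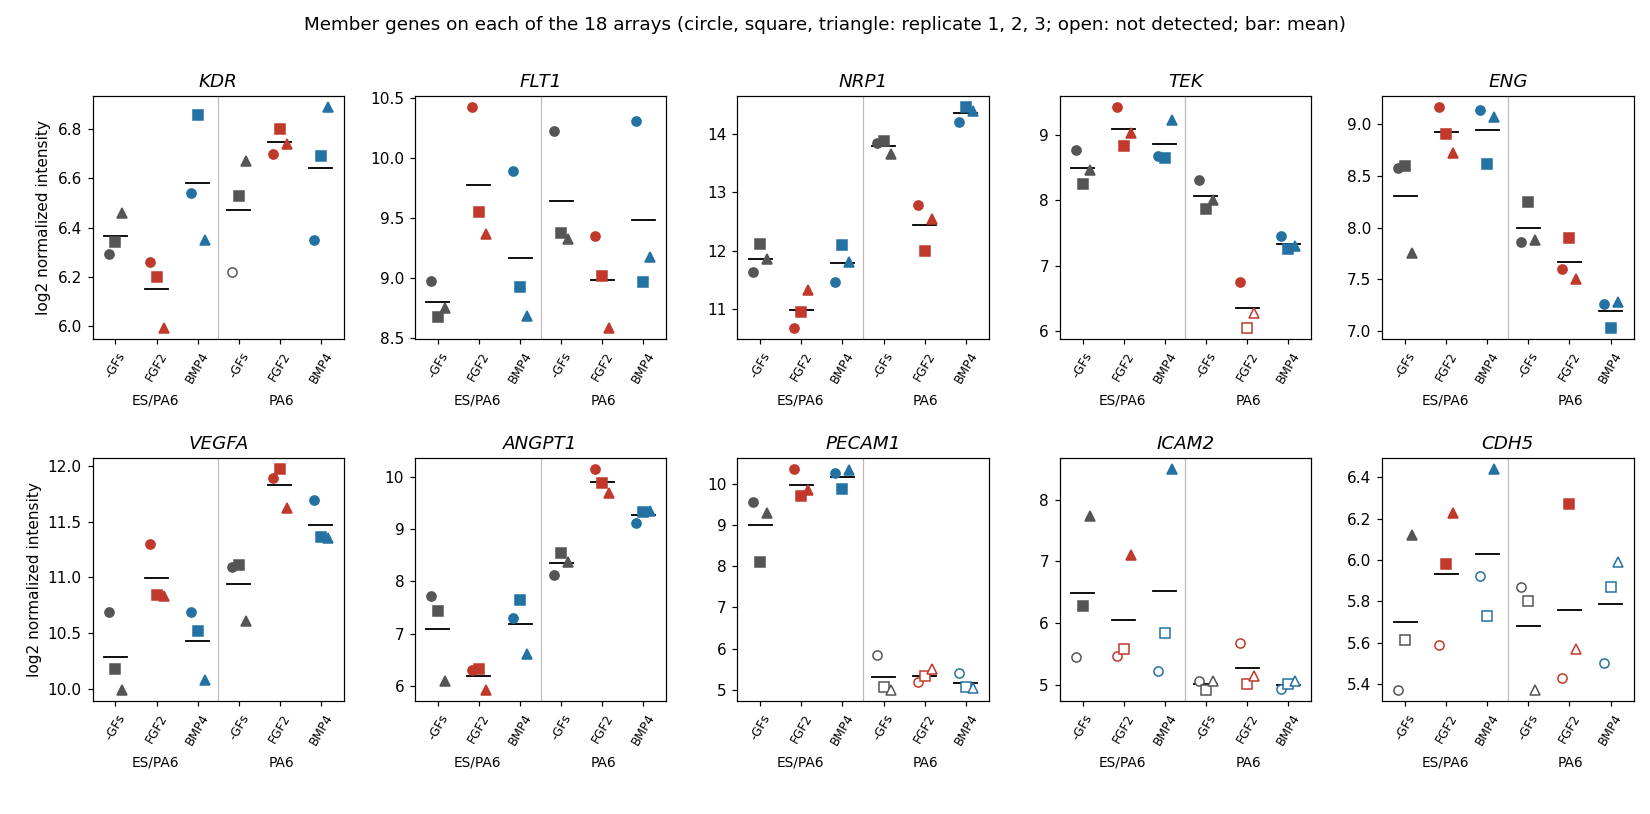
Log2 normalized intensity (vertical axes) of the 10 genes on each of the 18 arrays, by group (horizontal axes), with circles, squares and triangles for replicates 1, 2 and 3, open symbols for arrays without detection and bars for group means. TEK lay between 8.25 and 9.43 on the co-culture arrays and fell to 6.04 to 6.74 in mono-culture with FGF2, while ANGPT1 lay between 9.68 and 10.14 there and between 5.93 and 6.33 in co-culture with FGF2.

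VEGFA, the ligand, was detected on all 18 arrays and was higher with FGF2 in both culture types. In co-culture it read 10.69, 10.18 and 9.99 (log2, replicates 1, 2 and 3) in -GFs, 11.30, 10.84 and 10.83 with FGF2 and 10.69, 10.52 and 10.08 with BMP4. In mono-culture it read 11.09, 11.11 and 10.61 in -GFs, 11.89, 11.97 and 11.62 with FGF2 and 11.69, 11.36 and 11.35 with BMP4. The FGF2 arrays lay above the -GFs arrays without overlap in each culture type. The log2 fold change with FGF2 was 0.70 ± 0.212 (SE, adjusted p = 0.0619) in co-culture and 0.89 ± 0.212 (adjusted p = 0.00888) in mono-culture, both past the adjusted p and under the fold threshold. The second VEGFA probe gave 0.61 (adjusted p = 0.105) and 1.02 (adjusted p = 0.00271), the latter a call. With BMP4 the change was 0.14 in co-culture (adjusted p = 0.918) and 0.53 in mono-culture (adjusted p = 0.272). Mono-cultures carried more VEGFA signal in every condition. The difference (co-culture minus mono-culture) of -1.04 ± 0.212 with BMP4 was called (adjusted p = 0.000402). It fell under the fold threshold without co-culture BMP4 replicate 3 (-0.86) or mono-culture BMP4 replicate 1 (-0.93). The same held with quantile normalization without background correction (-0.99), cubic spline normalization (-0.99), array weights (-0.98) or replicate 3 left out of all groups (-0.92). The differences of -0.65 in -GFs and -0.84 with FGF2 were under the fold threshold. On the second probe these 3 differences were -1.10 with BMP4, -0.83 in -GFs and -1.24 with FGF2 (adjusted p = 5.33e-05), so that the FGF2 difference was called on that probe. In the order of group means, mono-culture with FGF2 came first and co-culture in -GFs last, and the arrays of neighbouring groups overlapped except between mono-culture with BMP4 and co-culture with FGF2.

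KDR, the main signalling receptor for VEGFA, was near the detection limit in both culture types. It was detected on 17 of 18 arrays, with values between 5.99 and 6.89, and the 9 co-culture and 9 mono-culture arrays covered much of the same range. In co-culture it read 6.29, 6.34 and 6.46 in -GFs, 6.26, 6.20 and 5.99 with FGF2 and 6.54, 6.86 and 6.35 with BMP4. In mono-culture it read 6.22, 6.53 and 6.67, 6.70, 6.80 and 6.74, and 6.35, 6.69 and 6.89 in the same conditions. The differences from -GFs in co-culture were -0.21 ± 0.161 with FGF2 (adjusted p = 0.572) and 0.22 ± 0.161 with BMP4 (adjusted p = 0.731). The 95% confidence intervals of these differences were -0.55 to 0.13 and -0.12 to 0.56. With FGF2 KDR was lower in co-culture than in mono-culture by 0.60 on the log2 scale (-0.60 ± 0.161, adjusted p = 0.00355), under the fold threshold. KDR signal was thus found in the stroma without ES cells and was called higher in co-culture in no condition. In the order of group means, from mono-culture with FGF2 to co-culture with FGF2, neighbouring groups overlapped except the last 2. Its second probe was detected on 0 arrays.

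FLT1, the high-affinity receptor, differed between the culture types in its response to FGF2. Its co-culture values were 8.97, 8.67 and 8.75 in -GFs and 10.42, 9.55 and 9.36 with FGF2, with no overlap. Its mono-culture values were 10.22, 9.37 and 9.32 in -GFs and 9.35, 9.01 and 8.58 with FGF2, where the ranges touched. With BMP4 it read 9.89, 8.92 and 8.68 in co-culture and 10.31, 8.96 and 9.17 in mono-culture. Neither FGF2 change was called by itself (0.98 ± 0.387, adjusted p = 0.176 in co-culture, and -0.66 ± 0.387, adjusted p = 0.319 in mono-culture), but their difference, tested as an interaction, was 1.64 ± 0.548 (adjusted p = 0.0716) and called. With the replicate block both FGF2 changes passed the adjusted p (0.00645 in co-culture and 0.0331 in mono-culture) and stayed under the fold threshold. Within replicate numbers the FGF2 change was 1.45, 0.87 and 0.61 in co-culture and -0.88, -0.35 and -0.74 in mono-culture. Replicate 1 was the brightest array of its group in all 6 groups. The call of the interaction was lost without any of 6 single arrays, among them co-culture FGF2 replicate 1 (1.31, adjusted p = 0.172) and mono-culture -GFs replicate 1 (1.34, adjusted p = 0.173). Neither culture type carried more FLT1 in all conditions: co-culture minus mono-culture was -0.84 in -GFs (adjusted p = 0.0663), 0.79 with FGF2 (adjusted p = 0.0807) and -0.32 with BMP4 (adjusted p = 0.485), none of them called. The differences in -GFs and with FGF2 were past the adjusted p and under the fold threshold, with no overlap between the culture types. The second FLT1 probe was detected on 0 arrays. The arrays of all neighbouring groups in the order of means overlapped.

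NRP1, the VEGFA and semaphorin co-receptor, was bright in both culture types, higher in the mono-cultures, and lower with FGF2 in both. In mono-culture it read 13.85, 13.89 and 13.65 in -GFs, 12.78, 11.99 and 12.54 with FGF2 and 14.21, 14.46 and 14.40 with BMP4. In co-culture it read 11.63, 12.11 and 11.85 in -GFs, 10.67, 10.95 and 11.32 with FGF2 and 11.46, 12.09 and 11.81 with BMP4. With FGF2 every array lay below every -GFs array of its culture type, and in mono-culture the BMP4 arrays lay above both. FGF2 lowered NRP1 in mono-culture by 1.36 on the log2 scale (-1.36 ± 0.214, adjusted p = 0.000361, a 2.56-fold change), and against BMP4 the difference was -1.92 ± 0.214 (adjusted p = 1.19e-05). In co-culture the FGF2 change was -0.88 ± 0.214 (adjusted p = 0.0199), under the fold threshold, and the effects did not pass the test of a difference between culture types (0.47 ± 0.303, 95% confidence interval -0.17 to 1.12, adjusted p = 0.375). The second NRP1 probe gave -0.87 in co-culture and -1.43 in mono-culture. NRP1 was called lower in co-culture in all 3 conditions (log2 differences of -1.93, -1.46 and -2.57 in -GFs, FGF2 and BMP4). The 3 mono-culture groups led the order of means, and mono-culture with FGF2 overlapped with co-culture in -GFs, the next in the order, as did co-culture in -GFs with co-culture with BMP4.

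ANGPT1, the TEK ligand, was higher in the mono-cultures and differed most between the culture types in the presence of FGF2. In mono-culture it read 8.12, 8.55 and 8.38 in -GFs, 10.14, 9.87 and 9.68 with FGF2 and 9.12, 9.32 and 9.35 with BMP4, 3 ranges that did not overlap. In co-culture it read 7.73, 7.43 and 6.10 in -GFs, 6.31, 6.33 and 5.93 with FGF2 and 7.30, 7.64 and 6.62 with BMP4. Replicate 3 was the lowest array in each co-culture group. The co-culture arrays with FGF2 were near the detection limit (detection p of 0.01709, 0.02244 and 0.03312), where differences are compressed. FGF2 raised ANGPT1 2.92-fold in mono-culture (1.55 ± 0.328, adjusted p = 0.00407), and the BMP4 change there of 0.91 ± 0.328 was not called (adjusted p = 0.205). In co-culture the FGF2 change was -0.90 ± 0.328 (adjusted p = 0.133), not called, and -1.39 (adjusted p = 0.00343) without -GFs replicate 3. The difference of the FGF2 effect between culture types was called at -2.45 ± 0.464 (adjusted p = 0.00308). Co-culture minus mono-culture was -3.71 ± 0.328 with FGF2 (adjusted p = 5.99e-08), -2.08 with BMP4 (adjusted p = 3.35e-05) and -1.26 in -GFs (adjusted p = 0.00288), the last falling under the fold threshold at -0.77 without co-culture -GFs replicate 3. The 3 co-culture groups came last in the order of means and overlapped with their neighbours among themselves. The second ANGPT1 probe was detected on 0 arrays.

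TEK, the receptor of ANGPT1, was higher in co-culture, where its ligand was lower. Co-culture arrays gave 8.77, 8.25 and 8.47 in -GFs, 9.43, 8.83 and 9.04 with FGF2 and 8.69, 8.65 and 9.24 with BMP4. Mono-culture arrays gave 8.31, 7.87 and 8.01 in -GFs, 6.74, 6.04 and 6.27 with FGF2 and 7.45, 7.26 and 7.30 with BMP4. TEK was thus present in the stroma alone without growth factors, and the 3 mono-culture groups did not overlap. FGF2 lowered it 3.27-fold in mono-culture (-1.71 ± 0.213, adjusted p = 3.84e-05), where it was detected on 1 of 3 arrays, and the changes within replicate numbers were -1.56, -1.83 and -1.73. BMP4 gave -0.72 ± 0.213 in mono-culture (adjusted p = 0.0979), under the fold threshold. In co-culture the FGF2 change was 0.61 ± 0.213 (adjusted p = 0.118) and the BMP4 change 0.36 ± 0.213 (adjusted p = 0.615), neither called, although all FGF2 arrays lay above all -GFs arrays. The FGF2 effect differed between culture types by 2.31 ± 0.301 (adjusted p = 0.000166), beside 7.39% of all genes called in this interaction and 3 of the 10 genes (TEK, FLT1 and ANGPT1). Co-culture minus mono-culture was 0.43 in -GFs (adjusted p = 0.0841), 2.75 ± 0.213 with FGF2 (adjusted p = 1.29e-08) and 1.52 ± 0.213 with BMP4 (adjusted p = 9.41e-06), of which the latter 2 were called, and the difference in -GFs was past the adjusted p and under the fold threshold. In the order of means the 3 co-culture groups came first, and neighbouring groups overlapped down to mono-culture in -GFs.

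ENG, the TGFβ co-receptor, differed between the culture types in its response to BMP4. The co-culture arrays read 8.57, 8.59 and 7.75 in -GFs, 9.16, 8.90 and 8.72 with FGF2 and 9.13, 8.61 and 9.07 with BMP4. The mono-culture arrays read 7.86, 8.25 and 7.88 in -GFs, 7.60, 7.90 and 7.50 with FGF2 and 7.26, 7.03 and 7.28 with BMP4. The BMP4 arrays lay above the -GFs arrays in co-culture and below them in mono-culture. The BMP4 change was 0.63 ± 0.216 in co-culture (adjusted p = 0.228) and -0.80 ± 0.216 in mono-culture (adjusted p = 0.0665), neither a call. Their difference of 1.44 ± 0.306 (adjusted p = 0.0653) was the 1 call among the 10 genes in the BMP4 interaction, beside 0.559% of all genes. It was lost without any of 7 single arrays, with adjusted p-values of 0.101 to 0.171. When the replicate number was fitted as a block, the adjusted p-values of TEK (1.09, 0.0334) and PECAM1 (1.30, 0.0697) also passed in this interaction, so that 3 of the 10 genes were called, beside 1.85% of all genes. For FGF2 the ENG changes were 0.62 in co-culture and -0.33 in mono-culture, with a difference of 0.95 ± 0.306 (adjusted p = 0.0607) just under the fold threshold. ENG was called higher in co-culture with FGF2 (1.26 ± 0.216, adjusted p = 7.97e-05) and with BMP4 (1.75 ± 0.216, adjusted p = 2.5e-06) and did not pass in -GFs (0.31, adjusted p = 0.224). The FGF2 call fell under the fold threshold at 0.96 with quantile normalization without background correction. Both co-culture groups with a factor overlapped at the head of the order of means, and co-culture in -GFs overlapped with mono-culture in -GFs.

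**Figure D3:**
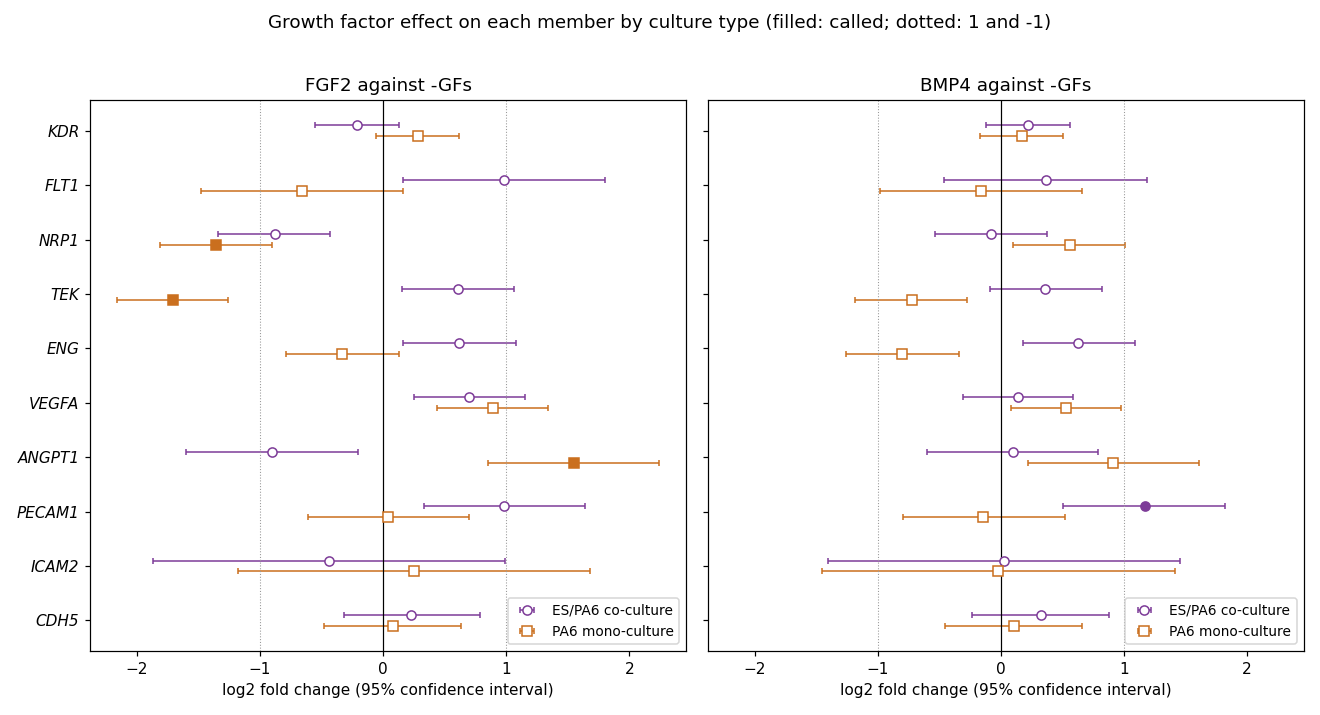
Log2 fold change against -GFs with its 95% confidence interval (horizontal axes) for each of the 10 genes (rows), with FGF2 on the left and BMP4 on the right, circles for ES/PA6 co-cultures and squares for PA6 mono-cultures, and filled symbols for called changes. With FGF2, TEK (0.61 and -1.71), FLT1 (0.98 and -0.66) and ANGPT1 (-0.90 and 1.55) lay on opposite sides of 0 in co-culture and mono-culture, as did ENG with BMP4 (0.63 and -0.80), and these 4 differences were called in the interaction test. Other genes on opposite sides, such as ENG with FGF2 (0.62 and -0.33) and TEK with BMP4 (0.36 and -0.72), were not called in it. With the replicate number fitted as a block, TEK and PECAM1 with BMP4 were called, and ENG with FGF2 (0.95) stayed under the fold threshold.

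PECAM1 was carried by the co-cultures. Both kept probes were detected on all 9 co-culture arrays and on 0 of 9 mono-culture arrays, so that the gene passed the detection filter through the co-cultures alone and had to differ between the culture types. The brighter probe read 9.56, 8.11 and 9.29 in -GFs, 10.35, 9.71 and 9.85 with FGF2 and 10.25, 9.88 and 10.33 with BMP4 in co-culture, and at most 5.84 in mono-culture. Against the lowest detected signal of the mono-culture arrays or the probe's own value, whichever was higher, PECAM1 was at least 6.44-fold higher in co-culture in -GFs, 13.1-fold or more with FGF2 and at least 15.6-fold with BMP4. No p-value is given for these differences, because the filter fixed their direction. Within the co-cultures, the FGF2 and BMP4 arrays lay above the -GFs arrays without overlap. The rise with BMP4 was 1.17 ± 0.309 (adjusted p = 0.0994), a call at the edge of the threshold that was lost without any of 15 single arrays and fell to 0.73 (adjusted p = 0.312) without -GFs replicate 2. The change with FGF2 was 0.98 ± 0.309 (adjusted p = 0.0755), under the fold threshold. The second probe gave 1.29 with FGF2 (adjusted p = 0.0356, called) and 0.78 with BMP4 (adjusted p = 0.424), so that the probes differed in which factor was called. NANOG read 12.84, 11.83 and 12.74 on the -GFs co-culture arrays, with its lowest value on replicate 2 as for PECAM1. The ES marker list, with 2 of 7 genes called higher with FGF2 and 0 with BMP4 in co-culture, summed to 36433 on -GFs replicate 2 and to 48801 and 41096 on replicates 1 and 3. The part of these markers in the PECAM1 values was not tested.

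ICAM2 gave signal in some co-cultures and in no mono-culture. It read 5.45, 6.28 and 7.73 in -GFs, 5.47, 5.58 and 7.10 with FGF2 and 5.23, 5.84 and 8.49 with BMP4 in co-culture, with detection on 2, 1 and 1 of 3 arrays. In mono-culture it lay between 4.92 and 5.68 and was detected on 0 of 9 arrays, so that this gene too passed the filter through co-culture arrays alone. Its calls between culture types are therefore no independent support for a difference. Co-culture was at least 1.14-fold higher in -GFs (adjusted p = 0.0657) and at least 1.25-fold higher with BMP4 (adjusted p = 0.0587), and was not called with FGF2 (0.77, adjusted p = 0.321). Without co-culture replicate 3 the differences were 0.85 (adjusted p = 0.3) in -GFs and 0.53 (adjusted p = 0.403) with BMP4, and neither was called. Single mono-culture arrays also ended these calls, any of 3 in -GFs (adjusted p = 0.107 to 0.126) and replicate 1 or 2 with BMP4 (adjusted p = 0.112 and 0.103). Within the co-cultures no change of ICAM2 passed the test (-0.44 ± 0.674 with FGF2, adjusted p = 0.831, and 0.03 ± 0.674 with BMP4, adjusted p = 0.996), with 95% confidence intervals of -1.87 to 0.99 and -1.40 to 1.46. With the replicate block the SE of both was 0.253, and neither passed (adjusted p = 0.334 and 0.977). With replicate 3 left out of all groups these changes were -0.34 and -0.33, and co-culture minus mono-culture with FGF2 was 0.18, none of them called. Leaving out single co-culture arrays of replicate 3 moved the change from -0.97 to 0.18 with FGF2 and from -0.96 to 0.65 with BMP4.

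CDH5, the VE-cadherin gene, was barely above background in any group. It was detected on 1, 2 and 1 of 3 co-culture arrays (-GFs, FGF2 and BMP4) and on 0, 1 and 0 of 3 mono-culture arrays, 5 of 18 in all. In co-culture it read 5.37, 5.61 and 6.12 in -GFs, 5.59, 5.98 and 6.23 with FGF2 and 5.92, 5.73 and 6.44 with BMP4. Mono-culture arrays lay between 5.37 and 6.27 and covered nearly the same range. Its changes against -GFs in co-culture were 0.23 ± 0.261 with FGF2 (adjusted p = 0.742) and 0.33 ± 0.261 with BMP4 (adjusted p = 0.767), and co-culture minus mono-culture was 0.02, 0.18 and 0.24 in -GFs, FGF2 and BMP4. With replicate 3 left out of all groups these were -0.35, -0.06 and 0.14, and the changes against -GFs in co-culture were 0.30 and 0.34. Neither culture type could be named as the source of this signal at this brightness. The second CDH5 probe was detected on 0 arrays.

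Side by side, the culture types differed as follows. In -GFs, 4 were called between culture types (ICAM2 and PECAM1 higher in co-culture, NRP1 and ANGPT1 lower), beside 39% of all genes. With FGF2, 5 were called (TEK, ENG and PECAM1 higher, NRP1 and ANGPT1 lower), beside 37.2%, and with BMP4, 7 (ICAM2, TEK, ENG and PECAM1 higher, VEGFA, NRP1 and ANGPT1 lower), beside 38.1%. The counts in -GFs and with FGF2 were near the share of all genes, and over all genes tested the median difference between culture types was -0.11, -0.14 and -0.13. The counts include PECAM1 and ICAM2, which passed the detection filter through the co-cultures alone. NRP1, on both kept probes, and ANGPT1 were detected on all 18 arrays and called in all 3 conditions. TEK and ENG were called with FGF2 and with BMP4 and not in -GFs, and KDR, FLT1 and CDH5 were called in none of the 3 conditions.

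**Figure D4:**
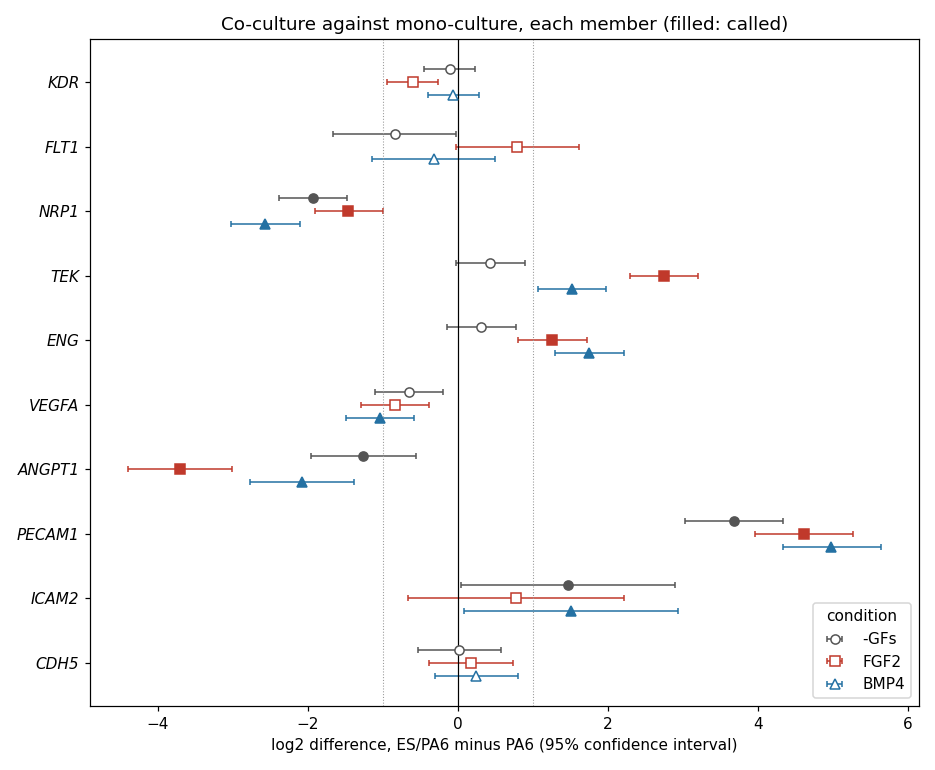
Log2 difference of ES/PA6 minus PA6 with its 95% confidence interval (horizontal axis) for each of the 10 genes (rows), with circles for -GFs, squares for FGF2 and triangles for BMP4 and filled symbols for called differences. PECAM1 lay to the right at 3.68 to 4.98, and NRP1 at -2.57 to -1.46 and ANGPT1 at -3.71 to -1.26 to the left. CDH5 lay close to 0 and KDR at -0.60 (FGF2) to -0.06 (BMP4). For PECAM1 and ICAM2 the mono-culture values were below detection, so their positions are no measured folds.

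Other genes of the VEGF and angiopoietin pathway were read from a list of 23 names, of which 15 were tested. FGF2 called 2 of the 15 in co-culture, 13.3% beside 3.34% of all genes: ESM1, an endothelial proteoglycan induced by VEGF, was detected on 0 of 3 -GFs arrays and 3 of 3 FGF2 arrays, a rise of at least 2.01-fold (adjusted p = 0.0155), and ADM, the vasodilator peptide adrenomedullin, fell (-1.23 ± 0.36, adjusted p = 0.0542). BMP4 called 1, ADM (-1.60 ± 0.36, adjusted p = 0.0514), beside 0.76% of all genes. In mono-culture FGF2 called 4, beside 5.27% of all genes: ADM (-1.68) and FIGF, the gene of VEGFD (-1.02), fell, and EPAS1, a hypoxia-inducible factor (1.22), and ANGPT2, the TEK ligand that opposes ANGPT1 (1.03), rose, so that both ANGPT1 and ANGPT2 were higher with FGF2 in the stroma. By limma BMP4 called 0 of the 15 there, beside 1.41% of all genes, with 6 at an unadjusted p under 0.05, beside 12.6%. Between culture types in -GFs, 1 of the 15 was higher in co-culture and 7 were lower (53.3%, beside 39% of all genes), with a median of -0.38 beside -0.11 for all genes. The 1 that was higher, VEGFC, the ligand of the lymphatic receptor FLT4, was detected on all co-culture and on 0 mono-culture arrays (at least 10.1-fold, 13.4-fold and 9.25-fold higher in -GFs, FGF2 and BMP4). VEGFC thus passed the detection filter through the co-cultures alone and had to differ in this direction. FIGF went the other way (-3.70, -3.19 and -3.53), as did ADM (-2.01, -1.56 and -2.60), and VEGFB was lower in -GFs (-1.25 ± 0.128). TIE1, the partner receptor of TEK, was detected on 1 of 18 arrays and not tested.

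Of 11 names of the receptor complex around ENG, 8 were tested. In co-culture limma called 0 with FGF2, beside 3.34% of all genes, and 0 with BMP4, beside 0.76%. At an unadjusted p under 0.05 there were 1 with FGF2, beside 17.8% of all genes, and 3 with BMP4, beside 10.9%. In mono-culture BMP4 raised ID1, a direct BMP target, by 4.31 ± 0.437 (log2, adjusted p = 8.72e-05) while ENG lay lower there. FGF2 called BMPR2 in mono-culture (at least 1.43-fold higher, detected on 2 of 3 arrays against 0). ACVRL1, the endothelial type I receptor that works with ENG, was called lower in co-culture in all 3 conditions (-2.24 in -GFs, -2.30 with FGF2 and at least 2.88-fold with BMP4) and was detected on 2, 1 and 0 of 3 co-culture arrays against 3 of 3 in mono-culture. TGFBR2 (-1.02, -2.02 and -1.09) and TGFBR3 (-2.12, -2.13 and -1.79) were called lower as well. In all, 1, 1 and 0 of the 8 were called higher in co-culture (-GFs, FGF2 and BMP4) and 3, 4 and 4 lower, beside 39%, 37.2% and 38.1% of all genes called in either direction. The 1 called higher was ID1 (1.31 in -GFs and 1.14 with FGF2), which with BMP4 was called lower (-1.98).

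Of 19 endothelial lineage transcription factors, 15 were tested, and limma called 0 in co-culture with FGF2 or BMP4, beside 3.34% and 0.76% of all genes. At an unadjusted p under 0.05 there were 4 and 2, beside 17.8% and 10.9% of all genes. TAL1, ERG and LYL1 were detected on 0 arrays. In mono-culture FGF2 called 2 (beside 5.27% of all genes), both lower: HEY2, an arterial NOTCH target, which read 8.13, 8.41 and 8.09 in -GFs and was detected on 0 of 3 arrays with FGF2 (at least 3.86-fold lower, adjusted p = 1.51e-08), and MEF2C (-1.24 ± 0.364, adjusted p = 0.0301). HEY2 was not detected on the -GFs and BMP4 co-culture arrays either, at least 5.02-fold and 4.87-fold below mono-culture. Between culture types in -GFs, 3 were higher in co-culture and 7 lower (66.7%, beside 39% of all genes). LMO2, a haemato-endothelial co-factor, was detected on all -GFs co-culture arrays and on 0 mono-culture arrays (at least 3.21-fold higher), and HHEX was higher by 1.66 ± 0.163 (log2). A gene that passed the detection filter through co-culture arrays alone, as LMO2 did, had to differ. GATA2 (-2.45) and NR2F2, a venous factor (-1.76), were among those called lower.

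Other endothelial junction and surface markers were read between culture types and between conditions. Of 25 tested among 32 names, 17 were called between culture types in each condition, 13, 12 and 12 of them higher in co-culture (-GFs, FGF2 and BMP4), beside 19.4%, 18.7% and 19% of all genes called higher. Of these 25 genes, 14, 10 and 10 were detected on 0 of the 3 mono-culture arrays of the condition, and a gene that passed the detection filter through co-culture arrays alone had to differ, so that the counts describe the list and support nothing further. The median difference was 1.22, 0.78 and 1.18 beside -0.11, -0.14 and -0.13 for all genes. In -GFs the widest were MMRN2, a matrix protein of endothelium (at least 9.81-fold higher in co-culture), EGFL7, a secreted vascular factor (3.69 ± 0.207 on the log2 scale), CLDN5, a tight junction claudin (at least 5.14-fold) and F11R, a junction adhesion molecule of epithelium and endothelium (at least 5.39-fold). CD34 (-3.25), VCAM1 (-2.15), RAMP2 (-2.04) and THBD (-1.43) were called lower in co-culture. FGF2 called 5 of the 25 in co-culture (20%, beside 3.34% of all genes), with VWF, the von Willebrand factor (1.80 ± 0.351, adjusted p = 0.0051), JAM2 (1.67) and ICAM1 (1.33) higher and CLDN5 (-1.67) and RAMP2 (-1.58) lower. BMP4 called 0 in co-culture, beside 0.76% of all genes, with 7 at an unadjusted p under 0.05, beside 10.9%.

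**Figure D5:**
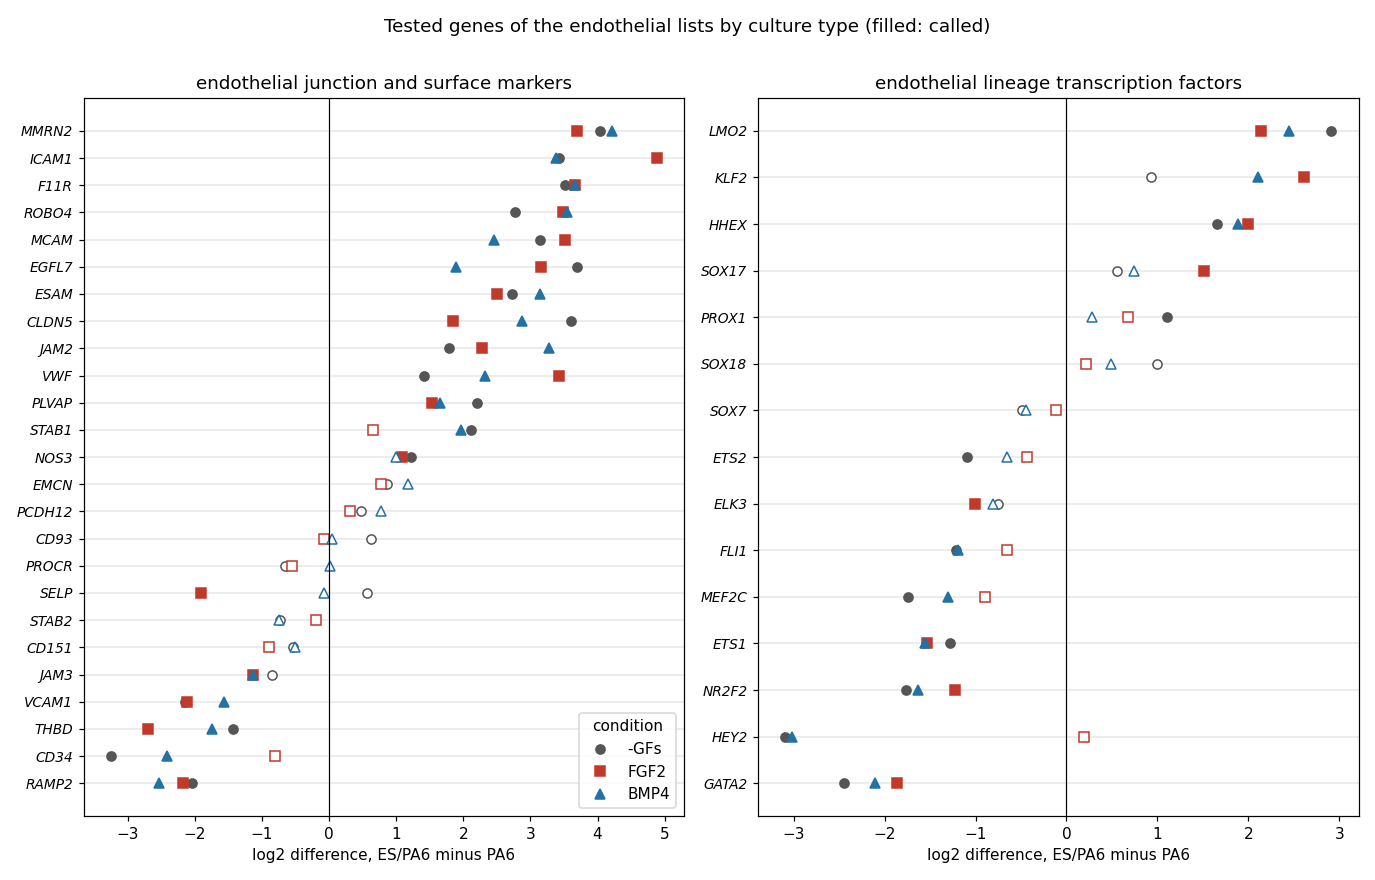
Log2 difference of ES/PA6 minus PA6 (horizontal axes) for the tested genes of 2 lists (rows), 25 endothelial junction and surface markers on the left and 15 endothelial lineage transcription factors on the right, with a colour and shape for each condition and filled symbols for called differences. MMRN2, EGFL7 and F11R lay to the right and CD34 and RAMP2 to the left, and among the factors LMO2 and HHEX lay to the right and GATA2 to the left. Genes below detection in one culture type have no measured fold.

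For each of the 10 genes, the 3 genes with the most similar pattern were found by Pearson's r over the 18 arrays after the mean of each culture type was subtracted. The points share replicate sets and groups, so r is a description. ICAM2 followed ACTC1 (0.961), EMCN (0.941) and CENTD3 (0.919), of which ACTC1 and EMCN were high on replicate 3. NRP1 followed FHL1 (0.953), ZER1 (0.95) and GSTT1 (0.948), TEK followed SLC24A6 (0.923), ARL6IP1 (0.913) and CTNNAL1 (0.91), and PECAM1 followed OTTMUSG00000010438 (0.896), AURKC (0.892) and ROBO4 (0.875), an endothelial guidance receptor. ANGPT1 followed HP (0.895), DNAJC3 (0.895) and BMPER (0.891), VEGFA followed LOC676640 (0.906), BTG1 (0.895) and MPV17L (0.89), and FLT1 followed CCT5 (0.896), a RIKEN clone (0.879) and CHCHD10 (0.87). KDR followed other genes (4732441L20RIK 0.924, LASS2 0.881, E330022B15RIK 0.851), and so did CDH5 (RNASEH2A 0.802, WDR59 0.765, 6330403A02RIK 0.74), as did ENG (4921517L17RIK 0.845, SCL000854.1_75 0.787, TAAR3 0.757). None of the 10 genes had another of the 10 among its 3 nearest. Between the 10 genes themselves r ran from -0.718, for TEK and its ligand ANGPT1, to 0.616, for KDR and ANGPT1.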

How the data were processed

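Total RNA of 18 cultures was labelled as biotin cRNA and hybridised to Illumina MouseWG-6 v2.0 bead arrays. The deposited values are bead intensities (55.5 to 72879) exported from GenomeStudio 2011.01, with a detection p-value per probe from the authors' software; 5 stray lines were left out. Groups followed the labels. Intensities were background-corrected and quantile-normalized with neqc (limma 3.58.1, R 4.3.3, offset 16), which raises dim values and shrinks their differences. Probes detected at p under 0.05 on at least 3 arrays were kept, and the probe with the largest mean stood for its gene (4561 genes had several kept probes). Group means of all 6 groups were fitted with limma for 11 comparisons, with Benjamini-Hochberg adjustment over all genes. The fit was tested on simulated data. Precision is limited by 3 arrays per group. Where a gene was detected on 0 arrays of 1 group, a bound was taken against the lowest detected signal or its own value, whichever was higher.

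The 10 genes and the gene lists were chosen with earlier results of these data known. All 10 genes are reported, and of each list at most 4 called genes per comparison were named. Names of genes follow the array table, where some are outdated. The labels describe 1 well per condition for each biological replicate, and shared replicate numbers were read as pairing the wells, although the titles name no shared batch or day. The main fit held no term for the replicate number, which entered only as an alternative. Deviations of same-numbered arrays from their group means correlated at 0.325 to 0.521 in 9 co-culture pairs and at 0.0628 to 0.164 in 9 mono-culture pairs (8 over 0.1). Alternatives were other normalizations, offsets, filters, thresholds and probe rules, array weights, separate fits, a replicate block and arrays left out.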

Additional observations from a re-analysis of the deposited data

Results flagged for a closer look

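For 4 of the 10 genes the response to a growth factor differed between the co-cultures and the mono-cultures by a test of the difference itself, the interaction term of limma. For FGF2 this difference (co-culture minus mono-culture, log2) was 2.31 for TEK (adjusted p = 0.000166), 1.64 for FLT1 (adjusted p = 0.0716) and -2.45 for ANGPT1 (adjusted p = 0.00308). These calls stand beside 7.39% of all genes. For BMP4 it was 1.44 for ENG (adjusted p = 0.0653), beside 0.559% of all genes. The 4 calls were not equally firm. The FLT1 call was lost without any of 6 single arrays and the ENG call without any of 7, and both were lost at an adjusted p under 0.05. The TEK and ANGPT1 calls were kept with any single array left out.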

How the results depend on the processing

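Over 110 results (10 genes in 11 comparisons), 3441 of 3558 alternative values kept their call, 45 gained one and 72 lost one. No called value changed sign, while 71 values not called either way did. For FGF2 in co-culture the count of called genes was 0, and 1 with median scaling, array weights or every kept probe, 3 with no fold threshold, 2 without replicate set 3 and 0 to 2 with single arrays left out. For BMP4 in co-culture it was 1, and 0 with median scaling, detection on at least 1 array or all 18, no filter, array weights, only the arrays of the culture type, adjusted p under 0.05, every kept probe or without replicate set 3 (0 to 1 with single arrays left out). For FGF2 against BMP4 in co-culture it was 0, and 1 with no fold threshold or without replicate set 3 (0 to 1). In mono-culture it was 3 for FGF2 (4 with no fold threshold or every kept probe, 2 with detection on all 18 arrays, 3 to 3), 0 for BMP4 (2 with no fold threshold, 0 to 0) and 1 for FGF2 against BMP4 (2 with median scaling, array weights or no fold threshold, 1 to 2). Between culture types it was 4 in -GFs (2 with quantile normalization without background correction, cubic spline normalization, detection on all 18 arrays or without replicate set 3, 3 with an offset of 50, no filter or adjusted p under 0.05, 7 with no fold threshold, 2 to 4). With FGF2 it was 5 (3 with detection on all 18 arrays, 4 with quantile normalization without background correction or cubic spline normalization, 6 with every kept probe, 8 with no fold threshold, 5 to 6). With BMP4 it was 7 (4 with detection on all 18 arrays, 5 with quantile normalization without background correction or cubic spline normalization, 5 to 7). For the FGF2 interaction it was 3 (2 to 5). There FLT1 lost its call with no filter (adjusted p = 0.114), at adjusted p under 0.05 and without replicate set 3 (adjusted p = 0.182). ENG gained a call there with median scaling (1.04) or no fold threshold. For the BMP4 interaction the count was 1, with 3 under the replicate block and 0 with adjusted p under 0.05 or without replicate set 3 (0 to 1). The causes were not tested. The replicate block, which takes shared replicate numbers as paired wells, changed no other call of the 10 genes. It did lower adjusted p-values for FGF2 against -GFs in co-culture, to 0.029 for TEK, 0.00645 for FLT1, 0.0698 for ENG and 0.0175 for ANGPT1. Without the block these were 0.118, 0.176, 0.112 and 0.133. With it these 4 changes passed the adjusted p and missed only the fold threshold. Over all genes, calls ran from 125 to 1489 (550 as reported) for FGF2 in co-culture, 10 to 280 (125) for BMP4 in co-culture, 122 to 1230 (469) for FGF2 against BMP4 in co-culture, 459 to 3083 (867), 113 to 632 (232) and 522 to 3332 (957) for the same comparisons in mono-culture, 3668 to 11712 (6408), 3412 to 11957 (6111) and 3595 to 11737 (6265) between culture types in -GFs, FGF2 and BMP4, 528 to 2467 (1216) for the FGF2 interaction and 44 to 305 (92) for the BMP4 interaction. Leaving out replicate set 3 was chosen after seeing the data. KDR, CDH5 and ICAM2 lay near background, where differences are compressed, as did ANGPT1 in co-culture with FGF2 and TEK in mono-culture with FGF2.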
